A study of Mus musculus with 2 samples.

Results

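The proteasome genes of mouse CD8+ T cells were read on 2 arrays, of which 1 held RNA from a culture with bezafibrate and 1 RNA from a control culture with the solvent alone, dimethyl sulfoxide (DMSO). Members were the genes read by a probe set that names exactly 1 gene and whose symbol starts with Psma, Psmb, Psmc, Psmd, Psme, Psmf or Psmg followed by a digit. This gave 49 genes, read by 52 probe sets, of 22180 genes named on the arrays. Both cultures started from naive CD8+ T cells that beads coated with antibodies to CD3 and CD28 had activated, and both received recombinant human interleukin-2 at 100 U/mL. Bezafibrate, a fibrate drug that activates the peroxisome proliferator-activated receptors, was present at 30 µM throughout 1 culture, and expansion ran to day 13. The sources used here name no strain, age or number of mice. There was 1 array per group, so the differences have no replicate check and carry no p-values, and they are differences between 2 cultures rather than 2 conditions.

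The 26S proteasome degrades proteins that carry ubiquitin chains. Its barrel, the 20S core, is built from outer rings of alpha subunits, which gate the entrance, and inner rings of beta subunits, some of which cut peptide bonds. The 19S particle caps the barrel, binds the ubiquitin chain, removes it and unfolds the substrate with a ring of ATPases. Lymphocytes and cells exposed to interferon-γ replace the constitutive catalytic subunits with those of the immunoproteasome, which favours peptides that MHC class I molecules can present, and activated T cells are known to carry it. PA28 and PA200 are activators that open the core without needing ubiquitin.

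Signals are given on the log2 scale as deposited, and the log2 ratio is bezafibrate minus control, so a negative ratio means a lower signal with bezafibrate. A gene counted as above the floor when its signal on at least 1 array passed the median of all named genes there, which was 4.88 in control and 4.85 with bezafibrate. Of the 49 members, 46 lay above the floor. The other 3 were Psma5 and the tissue-restricted subunit genes Psma8 (mainly testis) and Psmb11 (thymus). A further core subunit gene, Psma4, was read only by probe sets that also name AY074887, so it is no member.

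Promoter sequences of 4 members are shown to give the sequence context of catalytic subunit and PA28 genes described below, whose comparisons rest on the array signals alone. They were chosen after the values and motif matches were seen, and the windows of Psmb10 and Psme2, which hold none of the motifs, are not printed. Whether the annotated start used for Psmb10 is its main start was not checked, so its window may not be that of its main promoter. The windows run from 250 bases before to 50 bases after the annotated start of the gene, 5′ to 3′ on the gene's own strand, from RefSeq with assembly GRCm38.p6. Psmb5 lies at chr14:54617946-54618245 on the minus strand, Psmb8 at chr17:34197945-34198244 on the plus strand, Psmb9 at chr17:34187281-34187580 on the minus strand and Psme1 at chr14:55578244-55578543 on the plus strand. Capitals mark a match to 1 of 3 motifs searched on both strands, which were TGACNNNGC (the core of the antioxidant response element, read by NFE2L1 and NFE2L2), TTCNNNGAA (GAS, read by STAT dimers) and the ISRE (GAAA repeated after a gap of 2 bases, read by interferon regulatory factors). No matches overlapped in the windows shown.
Psmb5: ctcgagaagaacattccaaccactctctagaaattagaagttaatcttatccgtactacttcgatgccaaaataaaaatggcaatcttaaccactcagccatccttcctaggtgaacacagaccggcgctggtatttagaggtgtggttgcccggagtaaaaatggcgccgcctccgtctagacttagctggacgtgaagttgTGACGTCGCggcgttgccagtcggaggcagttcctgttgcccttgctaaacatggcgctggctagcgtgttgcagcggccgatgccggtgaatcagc
Psmb8: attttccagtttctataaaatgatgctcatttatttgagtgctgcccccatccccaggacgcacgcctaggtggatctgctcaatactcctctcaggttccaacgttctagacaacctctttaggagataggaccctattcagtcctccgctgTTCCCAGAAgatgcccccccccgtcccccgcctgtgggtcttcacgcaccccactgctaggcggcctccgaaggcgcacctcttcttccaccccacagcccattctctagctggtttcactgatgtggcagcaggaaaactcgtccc
Psmb9: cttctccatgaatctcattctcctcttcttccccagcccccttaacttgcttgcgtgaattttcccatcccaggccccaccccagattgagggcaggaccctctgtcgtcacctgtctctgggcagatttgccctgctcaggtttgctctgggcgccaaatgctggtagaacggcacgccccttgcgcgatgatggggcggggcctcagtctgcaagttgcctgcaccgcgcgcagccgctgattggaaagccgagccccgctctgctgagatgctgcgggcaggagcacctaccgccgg
Psme1: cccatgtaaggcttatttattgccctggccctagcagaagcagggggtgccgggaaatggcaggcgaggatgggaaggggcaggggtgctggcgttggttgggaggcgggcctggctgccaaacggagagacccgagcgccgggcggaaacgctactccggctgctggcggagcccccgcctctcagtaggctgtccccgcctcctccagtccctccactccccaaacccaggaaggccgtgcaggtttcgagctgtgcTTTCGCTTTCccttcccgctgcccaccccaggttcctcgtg

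The capitals mark an antioxidant response element core in Psmb5 that begins 47 bases before the start, a GAS match in Psmb8 that begins 97 bases before it, and an ISRE match in Psme1, on the opposite strand, that begins 9 bases after it. The Psmb9 window holds none of the 3 motifs. Psmb9 and Tap1, which encodes a chain of the transporter that carries proteasome products into the endoplasmic reticulum, are transcribed away from each other. Their annotated starts lie 226 bases apart, and their windows share 275 bases, which are exact reverse complements. Psmb8 lies between Tap1 and Tap2 in the same part of the MHC region on chromosome 17.

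Promoter windows were matched for 41 of the 49 members. The antioxidant response element core was found in 6 of these (14.6%), Psmb5, Psmb6, Psmc6, Psmd9, Psmd12 and Psme4, against 14.0% of 27025 genes. GAS matches were in Psmb8, Psmd2 and Psmg1 (7.32%, against 9.55% of all genes), and ISRE matches in Psmb3, Psmd4, Psmd9, Psme1 and Psmg4 (12.2%, against 3.99%). The log2 ratios of the members holding the antioxidant core ran from −0.41 to 0.11 with a median of −0.06, against a median of −0.09 for members without it. Those with a GAS match ran from −0.30 to 0.07 with a median of −0.04, against −0.08 without, and those with an ISRE match from −0.22 to 0.16 with a median of −0.19, against −0.08 without. Ratios were also taken with the median of all genes of like level and length subtracted, as described below. For the ISRE members they were −0.15 (Psmd4), −0.13 (Psmb3), −0.09 (Psme1), −0.08 (Psmd9) and 0.21 (Psmg4). The median of all members above the floor was then −0.06. A match of the motif letters is a description of the window and not a binding site.

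Most proteasome genes had slightly lower signals with bezafibrate, and the differences were small. Above the floor, 38 of 46 members (82.6%) read lower with bezafibrate and 7 (15.2%) read higher, and Psma1 had equal values on both arrays. Among all 11448 named genes above the floor, 49.6% were lower and 48.4% higher. The median log2 ratio of the members was −0.08, and that of all genes was 0. The ratios of the members ran from −0.41 for Psmb5 to 0.16 for Psmg4, and all 46 lay within the central 95% of ratios of all genes, which ran from −0.42 to 0.41. At least 1.2-fold lower were 5 members (10.9%), Psmb5, Psmb10, Psmd8, Psmb8 and Psme2, beside 10.4% of all genes. At least 1.2-fold higher were 0 members, beside 9.58% of all genes. At 1.5-fold, 0 members were lower and 0 higher, beside 0.524% and 0.664% of all genes, and at 2-fold likewise 0 and 0, beside 0% and 0.0874%. In 24 members (52.2%) the ratio was within 0.1 of 0, and this was so for 37.4% of all genes.

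**Figure D1:**
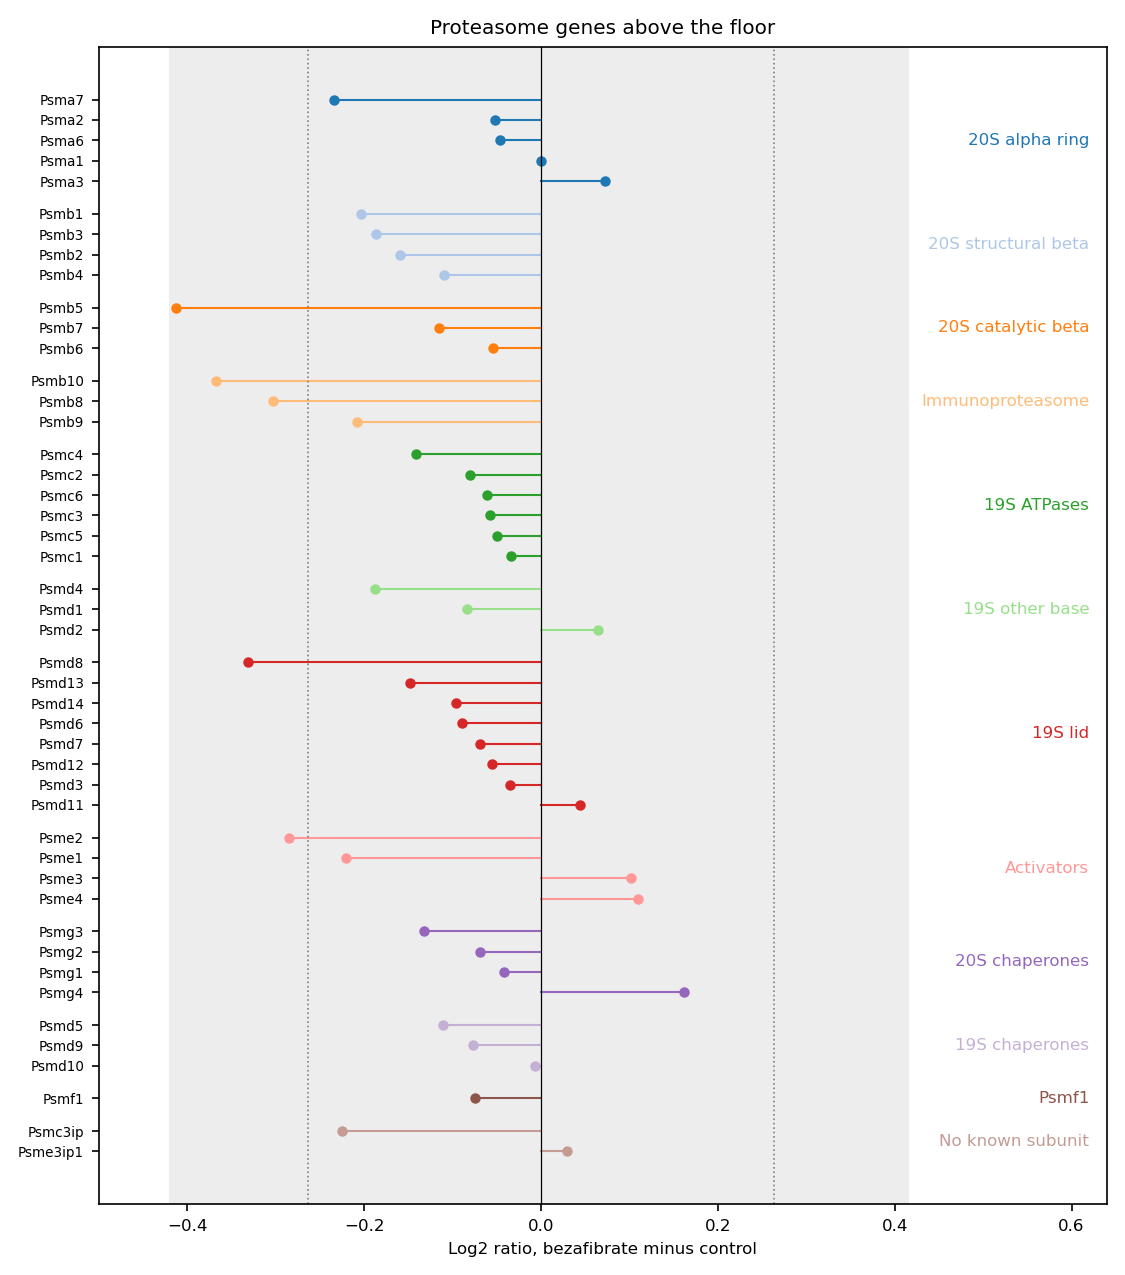
Log2 ratio of bezafibrate over control for each of the 46 proteasome genes above the floor, 1 point per gene, grouped by role. The grey band is the central 95% of all named genes above the floor (−0.42 to 0.41) and the dotted lines mark 1.2-fold; 38 points lie left of 0, and Psmb5, Psmb10, Psmd8, Psmb8 and Psme2 lie left of the lower dotted line.

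Short genes had lower ratios in these arrays, and many proteasome genes are short. The median gene length was 11930 bp for the members above the floor and 19981 bp for all genes above it. Spearman's rho of ratio on gene length was 0.43 across the 46 members and 0.28 across all genes; these points share the same 2 arrays, and genes are not independent replicates. With the median of all genes of like level and length subtracted, 29 members (63.0%) were lower and 16 higher, where 49.8% of all genes were lower. The median of the members was then −0.06, and 0 members were at least 1.2-fold lower. The shares of all genes that were higher, or at least 1.2-fold lower, after this subtraction were not counted, so those counts have no background. A value after this subtraction is called length-adjusted below. The part of gene length in the ratios was not tested.

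**Figure D2:**
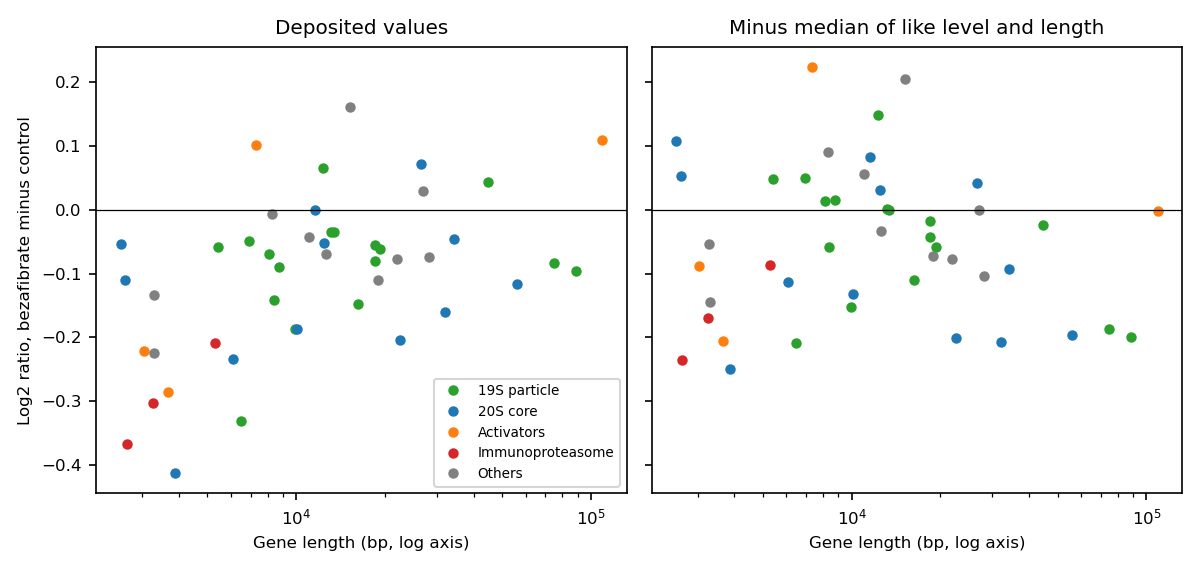
Log2 ratio against gene length (log axis, bp) for the 46 proteasome genes above the floor, with the deposited values at left and the length-adjusted ratios at right. At left the 3 immunoproteasome genes, from 2665 bp to 5301 bp long, lie between −0.37 and −0.21; at right they lie between −0.24 and −0.09.

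The catalytic subunits of the constitutive 20S core had unequal ratios. Psmb5 (probe set 17306417), which cuts after hydrophobic residues, had log2 levels of 8.26 in control and 7.85 in the bezafibrate culture, 1.33-fold lower. This was the lowest ratio of the members, −0.41, and 2.68% of all genes above the floor had a ratio as low. Psmb7 (probe set 17384693), which cuts after basic residues, had levels of 9.40 and 9.28, a ratio of −0.12. Psmb6 (probe set 17252070), which cuts after acidic residues, had levels of 8.11 and 8.06, a ratio of −0.05. In the deposited values the difference was thus concentrated on Psmb5 among the 3. The length-adjusted ratios were −0.25 for Psmb5, −0.20 for Psmb7 and 0.11 for Psmb6. Psmb5 and Psmb7 were then close to each other, and the sign of Psmb6 turned.

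All 3 immunoproteasome genes read lower with bezafibrate, beside 49.6% of all genes above the floor. Psmb10 (probe set 17512554), which takes the place of Psmb7, had log2 levels of 10.17 and 9.80, 1.29-fold lower, and 4.06% of all genes had a ratio as low as its −0.37. Psmb8 (probe set 17336446), which takes the place of Psmb5, had levels of 10.41 and 10.11, 1.23-fold lower, with 7.45% of genes as low. Psmb9 (probe set 17343789), which takes the place of Psmb6, had levels of 8.37 and 8.16, 1.16-fold lower, with 15.5% of genes as low. All of these signals were well above the floor on both arrays. The median ratio of the 3 genes was −0.30, the lowest median of the 4 groups compared, with −0.11 for the 20S core, −0.07 for the 19S particle and −0.06 for the activators. The groups overlapped, since 6 of the 43 other members above the floor (Psmb5, Psmd8, Psme2, Psma7, Psmc3ip and Psme1) had a ratio at or below that of Psmb9. After length adjustment the ratios were −0.24 for Psmb10, −0.17 for Psmb8 and −0.09 for Psmb9. The length-adjusted median of the 3 was −0.17, beside −0.20 for the 3 constitutive catalytic genes and −0.17 for the 4 structural beta subunit genes. Members such as Psmb2 (−0.21), Psmb1 (−0.20), Psmd14 (−0.20) and Psmd1 (−0.19) then lay below Psmb8 and Psmb9, so the groups overlapped further.

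Each immunoproteasome gene can be set beside the constitutive gene whose place it takes. The log2 ratio of Psmb10 minus that of Psmb7 was −0.25, a 1.19-fold shift of the pair towards the constitutive gene with bezafibrate. For Psmb9 and Psmb6 the shift was 1.11-fold in the same direction. For Psmb8 and Psmb5 it was 1.08-fold in the other direction, because Psmb5 was lower still. The catalytic pairs therefore did not shift one way. After length adjustment the shift of Psmb10 and Psmb7 was 1.03-fold, that of Psmb9 and Psmb6 1.15-fold and that of Psmb8 and Psmb5 1.06-fold, in the same directions.

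**Figure D3:**
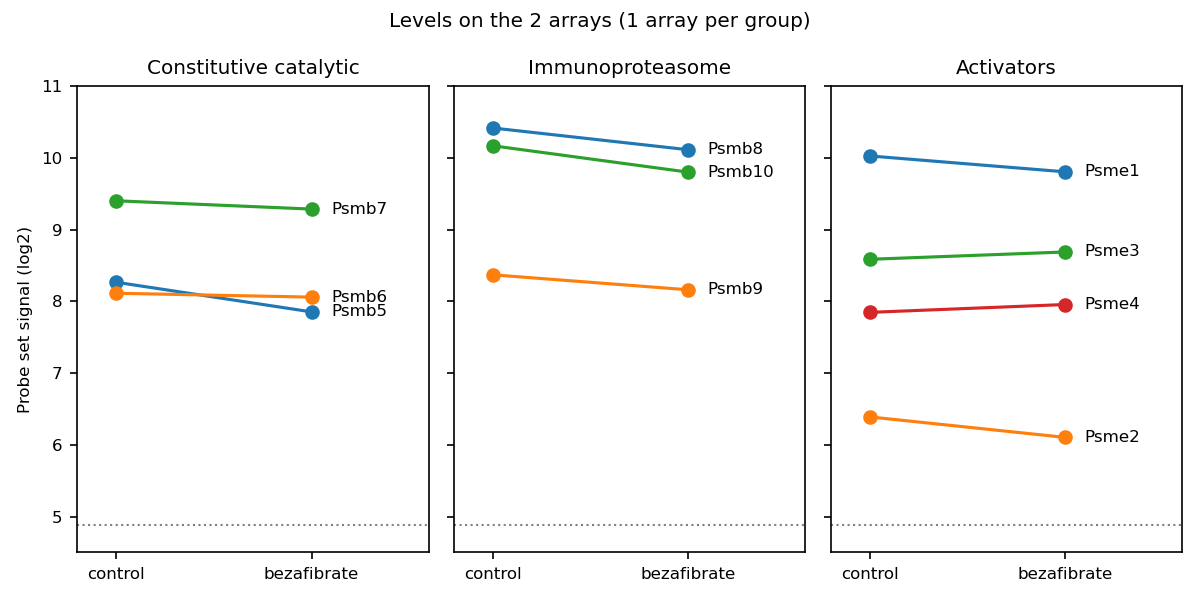
Log2 probe set signals on the control and bezafibrate arrays for the constitutive catalytic subunits, the immunoproteasome subunits and the activators, 1 line per gene and 1 array per group, with the control floor of 4.88 dotted. Lines slope down for all but Psme3 and Psme4, and least for Psmb6 and Psmb7; heights of different probe sets are not comparable.

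The remaining beta subunits and the alpha ring form the structural part of the core. All 4 structural beta subunit genes were lower, beside 49.6% of all genes. Their ratios ran from −0.20 for Psmb1 (probe set 17341197, levels 9.50 and 9.29) to −0.11 for Psmb4 (probe set 17407631, levels 8.22 and 8.11). Psmb3 had −0.19 and Psmb2 −0.16. After length adjustment 3 of the 4 were lower, beside 49.8% of all genes, and Psmb4 had 0.05. Of the 5 alpha ring genes above the floor, 3 were lower (beside 49.6% of all genes), 1 was higher (beside 48.4%) and Psma1 had 8.21 on both arrays. Psma7 (probe set 17395488) had levels of 9.24 and 9.01, a ratio of −0.23, whereas Psma3 (probe set 17276056) had 9.58 and 9.65, a ratio of 0.07. Psma2 and Psma6 both had −0.05. The alpha ring had a median of −0.05 and the structural beta subunits −0.17, and after length adjustment these medians were 0.03 and −0.17, with −0.11 for Psma7. The whole 20S core had a median of −0.11, and −0.10 after length adjustment.

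Some core genes had no usable or no unique signal. Psma5 was below the floor on both of its probe sets, at 3.66 in control and 4.32 with bezafibrate on the brighter and at 3.81 on both arrays on the other, so its ratio of 0.66 was not counted. The probe sets that name Psma4 together with AY074887 read 8.81 and 8.71, a ratio of −0.10, and 4.70 and 4.28, below the floor. Psma8 had levels of 3.83 and 3.74 and Psmb11, which neighbours Psmb5 on chromosome 14, 4.25 and 4.35, all below the floor.

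Most 19S genes had ratios close to the median of all genes, but on its lower side. Of the 17 genes, 15 were lower with bezafibrate, beside 49.6% of all genes. After length adjustment 10 were lower, beside 49.8%. The 6 ATPase genes, whose products unfold the substrate, were all lower but by little, from −0.14 for Psmc4 (probe set 17488352, levels 8.93 and 8.79) to −0.03 for Psmc1 (probe set 17277907, levels 8.12 and 8.09). A second, dimmer probe set of Psmc2 had levels of 5.81 and 5.50, a ratio of −0.31, against −0.08 on the brighter one, so probe sets of a single gene differed by more than the spread among the ATPases. After length adjustment 3 of the 6 were lower, and the ratio of Psmc1 was 0.00.

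Among the other base and lid subunits of the 19S particle, Psmd8 stood lowest. Psmd8 (probe set 17488743), a lid subunit, had levels of 9.79 and 9.46, 1.26-fold lower, and 5.78% of all genes had a ratio as low. The next lid gene, Psmd13, had −0.15, and the highest, Psmd11 (probe set 17253972), a lid scaffold, had levels of 9.18 and 9.22, a ratio of 0.04. Psmd14, the deubiquitinase that takes the chain off the substrate, had −0.10, and Psmd3, Psmd6, Psmd7 and Psmd12 lay between −0.09 and −0.04. In the base, the ubiquitin receptor gene Psmd4 (probe set 17407669) had levels of 7.42 and 7.23, a ratio of −0.19. The scaffold gene Psmd2 (probe set 17324034) had 8.51 and 8.58, a ratio of 0.07, and its partner Psmd1 had −0.08. Psmd8 was the 1 gene of the 17 in the 19S particle at least 1.2-fold lower, beside 10.4% of all genes. After length adjustment Psmd8 had −0.21 and Psmd11 −0.02. The whole 19S group had a median of −0.07, and −0.02 after length adjustment.

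The activator genes differed in sign. Psme1 and Psme2 encode the alpha and beta chains of PA28, which form a mixed ring, are induced by interferon-γ and work with the immunoproteasome. Psme1 (probe set 17300548) had levels of 10.03 and 9.80, 1.17-fold lower, and Psme2 (probe set 17306705) 6.39 and 6.10, 1.22-fold lower. A probe set that names Psme2 with 2 further genes had 7.57 and 7.34, a ratio of −0.22. Psme1 was thus lower on its 1 probe set. Psme2 was lower on each set that names it, but the set shared with further genes is not specific to Psme2. Psme3 (probe set 17256673), the nuclear PA28 gamma chain, had levels of 8.58 and 8.69, a ratio of 0.10. Psme4 (probe set 17248135), which encodes PA200, had 7.85 and 7.95, a ratio of 0.11. The log2 ratio minus that of Psme3 was −0.32 for Psme1 and −0.39 for Psme2. After length adjustment Psme1 had −0.09, Psme2 −0.20, Psme3 0.22 and Psme4 −0.00, so the separation of the PA28 alpha and beta chains from Psme3 was kept and Psme4 no longer read higher. The median of the 4 activators was −0.05 after length adjustment.

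Genes that build or restrain the proteasome had small ratios of both signs. Psmg1 to Psmg4 encode chaperones that assemble the alpha ring. Psmg4 (probe set 17286499) had levels of 5.70 and 5.86, a ratio of 0.16 and the highest of the members above the floor, and Psmg3 (probe set 17454516) 6.24 and 6.11, a ratio of −0.13. Psmg1 and Psmg2 had −0.04 and −0.07. Of the chaperones of the 19S base, Psmd5 (probe set 17384322) had 8.69 and 8.58, a ratio of −0.11, and Psmd10 (probe set 17544960), also known as gankyrin, had 6.69 on both arrays to 2 decimals, with a ratio of −0.01 and 0.09 after length adjustment. Psmd9 had −0.08. Psmf1 (probe set 17392868), which encodes the inhibitor PI31, had 8.36 and 8.28, a ratio of −0.07. As a group these 8 genes had a median of −0.07, and −0.04 after length adjustment. At least 1.2-fold lower were 0 of them, beside 10.4% of all genes, and at least 1.2-fold higher 0, beside 9.58%.

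The name rule also took in 2 genes above the floor that encode no proteasome subunit. Psmc3ip (probe set 17269758), a factor of homologous recombination, had levels of 6.01 and 5.79, a ratio of −0.23. Psme3ip1 (probe set 17511868), a partner of PA28 gamma, had 8.38 and 8.41, a ratio of 0.03. Without them 37 of 44 members were lower, beside 49.6% of all genes, with the same median of −0.08.

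Genes of connected pathways had ratios of both signs. The 28 listed genes analysed here all lay above the floor, with 12 lower, 16 higher and a median of 0.01. Among all genes 49.6% were lower and 48.4% higher. At least 1.2-fold lower were 0 of them, beside 10.4% of all genes, and 2 (7.14%) were at least 1.2-fold higher, beside 9.58%. These were Ecpas (probe set 17425708), a scaffold that binds the 26S proteasome, with levels of 8.01 and 8.35, and Uba6 (probe set 17449176), an E1 enzyme for ubiquitin and FAT10, with 7.93 and 8.21. Neither passed after length adjustment, at 0.23 and 0.19, whereas Irf1, at 0.31, then did. The median of the 28 genes was 0.05 after it. Pomp, which brings beta subunits to the nascent core, had 8.22 and 8.32, a ratio of 0.10. The ratios of Uchl5 and Usp14, deubiquitinases of the 19S particle, were 0.08 and 0.01, and those of Txnl1, Ube3c and the small 19S subunit Sem1 were −0.06, −0.04 and −0.02.

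Nfe2l1, the transcription factor that raises proteasome genes together when degradation is impaired, had levels of 7.12 and 7.25 (probe set 17268356), a ratio of 0.13. Its processing enzyme Ngly1 had 8.20 and 8.42, a ratio of 0.23, and Vcp, the segregase that extracts it from the endoplasmic reticulum, 9.38 and 9.48, a ratio of 0.11; a dimmer probe set of Vcp had −0.09. Nfe2l2 had −0.04, and the partner genes Mafg and Mafk 0.08 and −0.07. Of the VCP cofactors and shuttle factors, Ufd1 had −0.12 and Ubqln4 −0.03, and the other 4 lay between −0.00 and 0.04.

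Genes that use the peptides made by the immunoproteasome, or that drive its transcription, had other ratios than Psmb8, Psmb9 and Psmb10. Tap1 (probe set 17336432), which shares its promoter window with Psmb9, had levels of 10.001 and 9.981, a ratio of −0.02, and its partner Tap2 8.12 and 8.17, a ratio of 0.06. Tap1 had 0.06 after length adjustment, and its sign also turned after quantile normalization. Nlrc5 (probe set 17504023), the transactivator of MHC class I genes, had 9.00 and 9.18, a ratio of 0.18, and 0.08 after length adjustment. Irf1 (probe set 17249593), an interferon-induced factor that acts on immunoproteasome promoters, had 8.47 and 8.70, a ratio of 0.23, and 0.31 after length adjustment. Tapbp, which bridges the transporter and MHC class I, had −0.12, Irf8 −0.07 (0.15 on a dimmer probe set), B2m, the light chain of MHC class I, −0.02, and the peptide trimming enzyme Erap1 0.12. Further probe sets of Tapbp had −0.15 and, where the set also names Zbtb22, −0.46. On the brightest probe sets these 8 genes had a median of 0.02 and a lowest ratio of −0.12, against −0.21 for Psmb9, the highest of the immunoproteasome. After length adjustment the sets overlapped, with a median of 0.07 for the 8 genes, −0.10 for Irf8 and −0.09 for Psmb9.

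**Figure D4:**
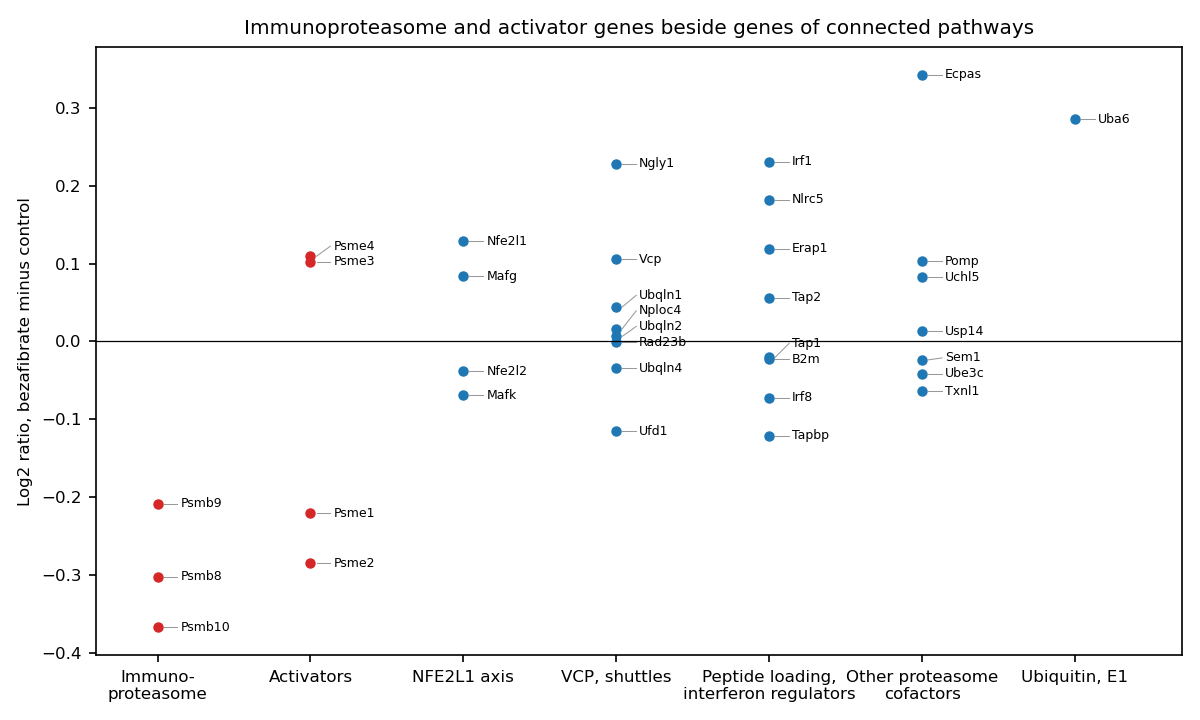
Log2 ratio of bezafibrate over control for the immunoproteasome and activator genes (red) and for 28 genes of connected pathways (blue), 1 point per gene. The immunoproteasome genes and Psme1 and Psme2 lie between −0.37 and −0.21, and the blue points between −0.12 and 0.34; after length adjustment, not drawn, they overlap, with Psmb9 and Psme1 at −0.09 and blue genes down to −0.15 (Ube3c).

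The cell type was checked against markers. The CD8 T cell markers analysed here, Cd3d, Cd3e, Cd3g, Cd8a and Cd8b1, were all above the floor, between 8.61 and 11.10 on the arrays. All 5 were lower with bezafibrate, beside 49.6% of all genes above the floor, with ratios from −0.30 to −0.06. Length-adjusted ratios were not taken for the markers. B cells and dendritic cells also carry the immunoproteasome. Of their markers analysed here, 1 of 4 B cell genes (Cd79b, 5.41 and 4.85) and 1 of 6 dendritic cell and macrophage genes (Cd68, 6.91 and 6.92) lay above the floor. The summed B cell markers were at 6.43 and 6.19 on the log2 scale and the summed dendritic cell and macrophage markers at 7.78 and 7.76. Natural killer cell markers were below the floor in 2 of 2 cases. Of the CD4 T cell markers Foxp3, at 4.95 and 5.02, was above the floor, and Cd4, at 3.88 and 4.29 (a ratio of 0.41), was below it. The part of other cells in the ratios of Psmb8, Psmb9 and Psmb10 was not tested, and in bulk RNA fewer cells of a type and less RNA per cell cannot be told apart.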

How the data were processed

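Total RNA of 2 cultures was amplified with a whole-transcript kit and hybridised to Affymetrix arrays, per the labels' protocols. The deposited values are log2 signals summarised by RMA, and the submitters' processing notes also name Affymetrix Expression Console, without versions. RMA equalises the arrays, so a shift shared by most genes would be removed, and it compresses ratios of dim genes. The log2 scale was inferred from their range, 0.75 to 12.68, with column medians of 4.58 in control and 4.55 with bezafibrate. Depth has no meaning for arrays, and their number limits the precision.

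Of 33793 probe sets with a value, 23521 named 1 gene in the platform annotation, 1814 several and 8458 none. The brightest probe set by mean stood for a gene. Gene lengths came from RefSeq (GRCm38.p6), which matched 99.8% of genes and all 49 members, and were used in 10 by 10 classes of level and length. Coordinates are those of the RefSeq promoter table, and the build used for the arrays is not given in the sources used here.

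Named with full values were the catalytic subunits, activators and Psmf1, the highest and lowest ratio of each class, and fixed or extreme genes of the connected pathways. Other members are given by value or range. The members, lists and alternatives were chosen with earlier results of these data known. Functions were tested on simulated data with known shifts. Proteins were not compared here, and some listed genes are not reported here. Calculations ran in pandas 2.3.3 and numpy 2.4.6 under Python 3.11.15, with statsmodels 0.14.6 for lowess, scipy 1.17.1 for correlations and matplotlib 3.10.9 for plots.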

Additional observations from a re-analysis of the deposited data

How the results depend on the processing

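Alternatives were no floor or one at the 75th percentile, quantile normalization, a lowess curve of ratio on level subtracted, centring on all genes above the floor, subtracting the median of the level and length class, the mean over probe sets, adding probe sets that name several genes, and for group values the mean or leaving out the farthest member. A value was taken as moved when it changed by at least 0.1 on the log2 scale, and a count when it changed by more than 1.5 times. No paired analysis was possible because each group holds 1 array, and none could be left out.

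Under all of them the median of the members stayed between −0.10 and −0.06, that of the 20S core between −0.13 and −0.10, of the 19S particle between −0.08 and −0.02, of the assembly genes with Psmf1 between −0.08 and −0.04, and of the connected pathways between 0.01 and 0.05. The immunoproteasome median moved to −0.17 with the level and length trend subtracted, and otherwise lay between −0.34 and −0.29. The activator median turned to 0.10 with the floor at the 75th percentile, and also without the farthest member, since both leave out Psme2. The number of members at least 1.2-fold lower went from 5 to 0 with the level and length trend subtracted and to 0 at limits of 1.5-fold and 2-fold, where 0.524% and 0% of all genes were lower. The number higher went from 7 to 16 with that trend subtracted. For that setting the shares of all genes higher, or at least 1.2-fold lower, were not counted. Without a floor 1 member, Psma5, was at least 1.2-fold higher. Of 276 values of 46 named genes under alternatives, 15 moved, 14 of them with the level and length trend subtracted. Where the sign of a named gene turned, under 3 alternatives, the ratio had been no farther from 0 than 0.11.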
